A study of Rattus norvegicus with 29 samples.

Results

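Monocyte identity genes are genes whose products mark circulating monocytes, the blood cells that become macrophages and some dendritic cells in tissue. The set held 10 genes: Spi1, Csf1r, Cd14, Cd68, Itgam, Cx3cr1, Ccr2, Lyz, Fcgr3a and Cd163. A probe was taken as a member's when its accession, its gene name on the array or an older synonym listed by RefSeq was that of the gene. This gave 14 of the 41012 probes. Of the 10 genes, 9 were measured well enough to be tested, among 24267 genes tested in all.

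RNA came from blood mononuclear cells, the lymphocytes and monocytes left after Ficoll separation, of 29 male Wistar rats aged 6 months. Rats of the control diet received standard chow; the cafeteria diet added fat-rich, hypercaloric foods to chow over 4 months and served as a model of diet-induced obesity. Within each diet, fed rats ate freely, fasted rats had no food for 14 h, and refed rats were fasted and then had free access to food for 6 h. Each of the 6 combinations of diet and state had 5 rats, other than control fed, with 4. Per the labels, 1 further control sample was left out for its low amount of RNA. Each array held the Cy5-labelled RNA of 1 rat beside a Cy3-labelled pool of RNA from all groups. Values below are log2 ratios of a rat over that pool after normalization within the array, so 0 is the level of the pool and 1 is a doubling. They show no order of abundance between genes.

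The median Cy5 signal of an array was 103.2 to 154.2 units, and 53.3% to 66.7% of its spots were well above background. Image extraction took place in 2 runs, of 14 and of 15 arrays, over which the 6 groups were spread unevenly: run 1 held 4 of 5 control fasted but 1 of 5 cafeteria fasted arrays. The mononuclear cell label was set against markers of other blood cells. All 13 T cell, all 9 B cell and all 13 natural killer (NK) and cytotoxic cell markers on the array passed the filter on dim probes, which required Cy5 signal well above background on at least 4 of 29 arrays. Of 13 neutrophil markers on the array 11 passed, with Mpo well above background on 0 arrays and Cxcr2 on 3, and of 13 platelet markers 11 passed. Of the neutrophil markers that passed, Ngp, Mmp8, Ltf, Lcn2 and Retnlg were well above background on 7, 9, 12, 18 and 27 arrays. The others were so on all 29. Genes on the platelet and neutrophil lists were thus measured beside those of mononuclear cells. In RNA of mixed cells, fewer cells of a type and less RNA per cell cannot be told apart.

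Monocytes arise in the bone marrow under the transcription factor PU.1, the product of Spi1, which binds purine-rich DNA at many myeloid genes, among them that of the receptor for colony-stimulating factor 1 (Csf1r). In rats, as in mice, a classical subset rich in Ccr2 follows the chemokine Ccl2 into inflamed tissue, and a nonclassical subset rich in Cx3cr1 patrols the vessel wall. Cd14, Fcgr3a and Itgam encode receptors for lipopolysaccharide, immune complexes and complement, and Cd68 and Lyz encode a lysosomal membrane protein and the antibacterial enzyme lysozyme. Several of these genes are not exclusive to monocytes: Spi1 is also active in B cells and neutrophils, and Itgam, Fcgr3a and Cx3cr1 in NK cells.

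The probes differed in how well they measured the members. Positions are those of the array files, on the rn4 build. The probe of Spi1, which the array names by its older symbol Sfpi1, lies at chr3:75475250-75475309 on the forward strand, and its mean Cy5 signal was 449 units. The probes of Cd68 (chr10:56481762-56481821, reverse strand, 7410 units), Cx3cr1 (chr8:125034092-125034151, reverse strand, 417 units), Ccr2 (chr8:128893805-128893864, forward strand, 219 units) and Fcgr3a (chr13:86877181-86877240, forward strand, 12500 units) each cover 60 bases. Those of Itgam (chr1:187385032-187385565, forward strand, 2460 units) and Lyz (chr7:56608440-56609236, reverse strand, 80100 units) are listed over spans of 534 and 797 bases, longer than the 60 bases of a probe. All of these probes were well above background and unsaturated on 29 of 29 arrays. No annotation of exons on that build was used here.

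Csf1r had 3 probes, and the results rest on the probe at chr18:57105231-57105932, with 4160 units and signal on 29 of 29 arrays. Its other probes were well above background on 1 and 0 arrays. Cd14 had 2 probes: the brighter one (chr18:29374990-29375049, 865 units, 29 of 29 arrays) was used, and the dimmer one (149 units, 27 of 29 arrays) is given beside it where they differ. Both probes of Cd163, a scavenger receptor for haemoglobin complexes found mainly on tissue macrophages, were well above background on 0 of 29 arrays (mean Cy5 67 and 64.5 units), so Cd163 was not tested. Lyz is named Lyz2 in the RefSeq gene table. The Fc receptor genes of this cluster are similar, and probes that the array names Fcgr3 were matched by accession to Fcgr2a and not counted as members. The RefSeq entry of Fcgr2a also lists Fcgr3a as a synonym, so whether those probes belong with the member is uncertain, and cross-hybridisation within the family was not tested.

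Spi1 was higher in cafeteria than in control rats and was the only member called in any of the 12 comparisons made. Genes were called in limma's test where p, adjusted over all genes, was under 0.05. In control fed rats 1, 4, 7 and 13, the Spi1 log2 ratio was -0.12, 0, -0.30 and -0.15. It was -0.31, -0.55, -0.39, -0.27 and -0.33 in control fasted rats 2, 5, 8, 11 and 14, all below the control fed values except that rat 11 was above control fed rat 7. The control refed rats 3, 6, 9, 12 and 15 had values of -0.24, -0.11, -0.12, 0.10 and -0.07, all above the control fasted rats.

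Among cafeteria rats the values spread further. Fed rats 1, 4, 7, 10 and 13 had Spi1 log2 ratios of -0.37, 0.10, 0.07, 0.31 and 0.23, with rat 1 alone below 0. The values of fasted rats 2, 5, 8, 11 and 14 were 0, 0.30, -0.05, 0.17 and -0.25, and every one of them was above every control fasted rat. Refed rats 3, 6, 9, 12 and 15 had 0.16, 0.36, 0.28, -0.10 and 0.41, with rat 12 alone inside the range of the control refed rats. Over all states the control rats ran from -0.55 to 0.10 (median -0.19, n = 14) and the cafeteria rats from -0.37 to 0.41 (median 0.16, n = 15). The ranges overlap, but 13 of 15 cafeteria rats lay above the control median and 0 of 14 control rats above the cafeteria median.

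**Figure D1:**
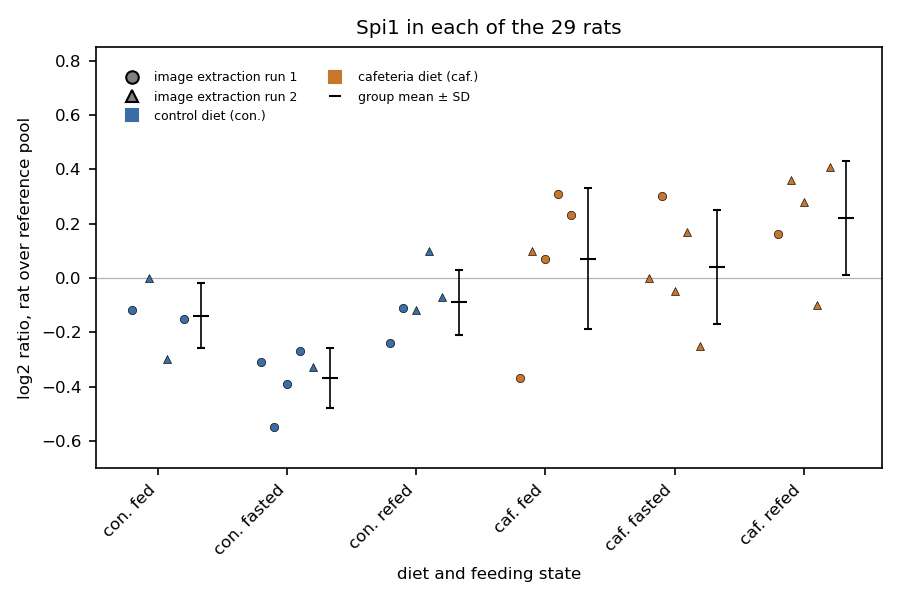
Spi1 log2 ratio of each rat over the reference pool, by diet and feeding state; points are rats, their shape shows the image extraction run, and bars give the group mean and SD (n = 4 in control fed, 5 in each other group). Control fasted rats, at -0.55 to -0.27, sit below all cafeteria fasted rats, at -0.25 to 0.30.

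The mean Spi1 log2 ratio was highest in cafeteria refed rats at 0.22 ± 0.21 (SD, n = 5), followed by cafeteria fed at 0.07 ± 0.26 (SD, n = 5) and cafeteria fasted at 0.04 ± 0.21 (SD, n = 5). The control groups followed, with -0.09 ± 0.12 (SD, n = 5) in refed, -0.14 ± 0.12 (SD, n = 4) in fed and -0.37 ± 0.11 (SD, n = 5) in fasted rats. All 3 cafeteria means were above all 3 control means, although each group overlapped its neighbour in this order. Averaged over the feeding states, the cafeteria minus control difference in Spi1 was 0.31 ± 0.07 (SE; 95% confidence interval 0.17 to 0.44; adjusted p = 0.00581, limma), a 1.24-fold higher level. In this comparison 1 of 9 members was called, against a background of 3.25% of all genes, and 0.795% of all genes were called higher as Spi1 was. Across the 6 groups Spi1 was again the 1 member called (adjusted p = 0.0112, limma's F test), where 9.86% of all genes were; that call ended with median centring, with Cy5 alone and with slide as a block.

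By feeding state the Spi1 difference between diets was 0.21 in fed (adjusted p = 1), 0.41 ± 0.11 in fasted (adjusted p = 0.0795) and 0.31 in refed rats (adjusted p = 0.365), and none was called. The fasted groups did not overlap, as was so for 4.53% of all genes. Within image extraction run 1 the mean difference over the states was 0.40, and within run 2 it was 0.27. Run 1 held 1 cafeteria fasted and 1 cafeteria refed rat, and run 2 held 1 cafeteria fed and 1 control fasted rat, so parts of these means rest on single rats. With the values centred on the array median in place of loess, the Spi1 difference was 0.40 and no longer called (adjusted p = 0.132); that setting called 54 genes in all, against 788.

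Spi1 varied over the arrays together with several other members. Over the 29 arrays its Pearson correlation was 0.79 with Cd68, 0.78 with Csf1r, 0.67 with Fcgr3a and 0.49 with Lyz, and it was 0.18 with Cd14, -0.15 with Ccr2 and -0.47 with Itgam. With each group's mean removed, these were 0.76, 0.83, 0.62, 0.64, 0.48, 0.32 and -0.42. The 29 arrays share the reference pool and the groups, so these values describe the arrays. Without the 2 arrays farthest from the Spi1 median the correlation with Csf1r was 0.75, and within runs 1 and 2 it was 0.81 and 0.78. The genes most like Spi1 over the arrays were Map3k9 (r = 0.90), Renbp (r = 0.89) and Napsa (r = 0.88).

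Lists of markers of other blood cells were read beside the diet difference in Spi1. The mean log2 ratio of the 11 measured neutrophil markers differed by 0.19 between cafeteria and control rats (from -0.60 to 0.19 in control and from -0.33 to 0.86 in cafeteria rats). Of these markers 1 rose, Camp, an antimicrobial peptide of neutrophil granules (0.80 ± 0.19, adjusted p = 0.0169, limma), and S100a9 had a change of 0.54 (adjusted p = 0.381). The mean of 9 B cell markers differed by 0.13 (from -0.23 to 0.22 in control and from -0.30 to 0.34 in cafeteria rats). Of these 9 markers 8 were higher in cafeteria rats, with a median difference of 0.20 and none of the 8 called. The other, Bank1, a B cell adaptor, fell by 0.32 (adjusted p = 0.00671), and Fcer2 had a change of 0.34 (adjusted p = 0.121). Over the arrays the correlation of Spi1 was 0.58 with the neutrophil mean and 0.52 with the B cell mean (0.51 and 0.39 with group means removed). Their part in the Spi1 difference was not tested.

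The lists of the remaining other cell types had correlations with Spi1 between -0.29 and 0.35. The mean cafeteria minus control difference was 0.39 for 9 erythroid markers (from -1.29 to 0.64 in control and from -0.76 to 0.70 in cafeteria rats), of which Ahsp, a chaperone of haemoglobin, rose (0.99, adjusted p = 0.0215) and Hbb had a change of 0.63 (adjusted p = 0.284). It was -0.20 for 11 platelet markers, all lower and none called, with -0.36 for Pf4 and -0.33 for Gp1bb. It was -0.06 for 13 NK and cytotoxic cell markers (-0.17 for Gzma, -0.13 for Il2rb), -0.05 for 13 T cell markers (-0.30 for Cd3e, adjusted p = 0.0857, and 0.20 for Trat1) and 0 for 6 dendritic cell markers (-0.19 for Irf4, 0.10 for Ccr7), with none called. The correlation of Spi1 was 0.35 with the erythroid, -0.25 with the platelet, -0.29 with the NK, -0.16 with the T cell and 0.21 with the dendritic cell mean. With the means of the myeloid lists it was 0.78 for partners and effectors of member receptors, 0.69 for other monocyte and macrophage surface genes, 0.65 for myeloid transcription factors and 0.58 for phagocyte oxidase and lysosome genes. It was 0.41 for nonclassical and 0.38 for classical monocyte genes, and -0.21 for ligands of member receptors. With each group's mean removed it was 0.72 for classical, 0.66 for nonclassical and 0.81 for phagocyte genes. It was then 0.74 for partners, 0.70 for surface genes, 0.57 for transcription factors and 0.16 for ligands. For the other cell types it was 0.51 (neutrophil), 0.39 (B cell), 0.29 (erythroid), 0.25 (platelet), 0.17 (dendritic), -0.29 (NK) and -0.33 (T cell).

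The remaining 8 members showed no called diet difference, and their intervals bound it. The cafeteria minus control difference, averaged over the states, was 0.19 for Csf1r (95% confidence interval -0.10 to 0.48), 0.21 for Cd68 (-0.01 to 0.42) and 0.29 for Fcgr3a (-0.10 to 0.67). For Cx3cr1 it was 0.04 (-0.07 to 0.15) and for Ccr2 -0.21 (-0.44 to 0.01). It was -0.03 for Cd14 (-0.46 to 0.40), 0.12 for Lyz (-0.35 to 0.59) and -0.28 for Itgam (-0.69 to 0.13). The intervals of Cx3cr1, Ccr2 and Itgam lie below the Spi1 estimate, while those of Csf1r, Cd68, Fcgr3a, Cd14 and Lyz include it. The adjusted p of these 8 members ran from 0.349 for Cd68 to 0.966 for Cd14. The median difference of the 9 members was 0.12, against 0.01 over all genes. Leaving out 1 array gave -0.35 to -0.15 for Itgam (the latter without cafeteria refed rat 15) and 0.02 to 0.22 for Lyz (0.02 without cafeteria fed rat 4 or control fed rat 7, 0.22 without cafeteria fed rat 1). It gave 0.12 to 0.26 for Csf1r, 0.01 to 0.07 for Cx3cr1 and -0.13 to 0.06 for Cd14. Between image extraction runs the sign differed for Ccr2, at -0.35 in run 1 and 0.05 in run 2, and for Cd14, at -0.13 and 0.29. In runs 1 and 2 the difference was 0.29 and 0.37 for Csf1r, 0.39 and 0.16 for Cd68, -0.46 and -0.23 for Itgam, 0.06 and 0.01 for Cx3cr1 and 0.38 and 0.42 for Lyz. Within each run some groups held a single rat, so these run values are imprecise.

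**Figure D2:**
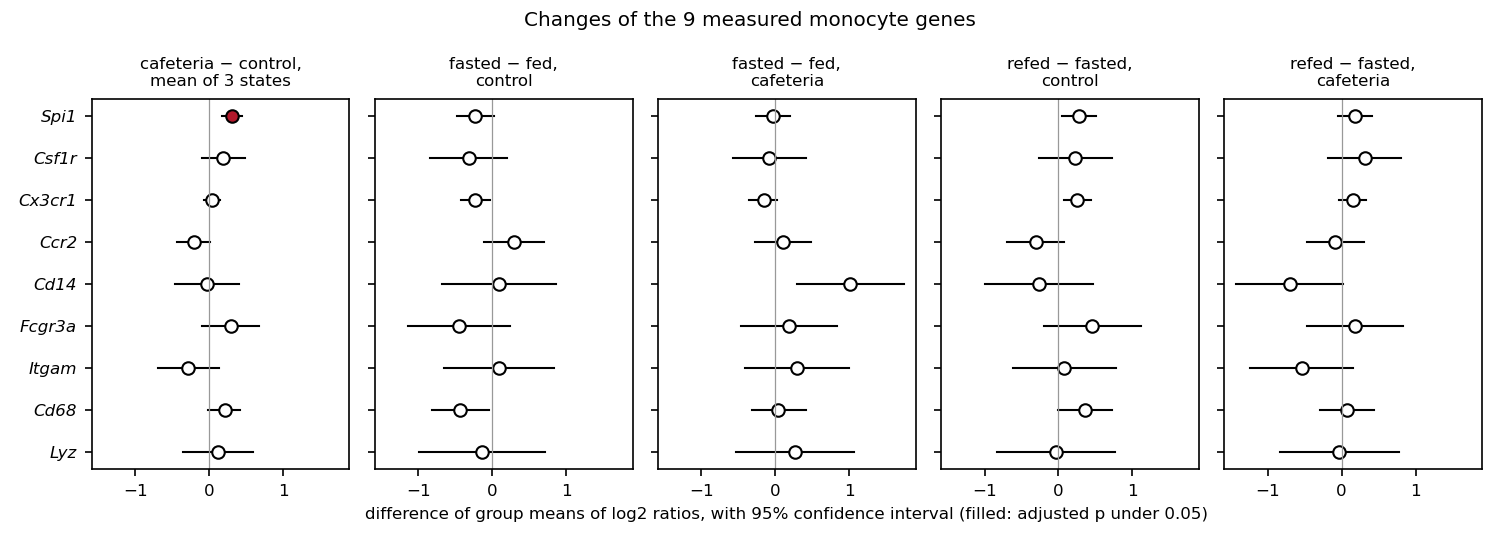
Change of each of the 9 measured members in 5 comparisons, as the difference of group means of log2 ratios (points) with its 95% confidence interval (lines); filled points passed the adjusted p threshold of 0.05. The 1 filled point is Spi1 in the comparison of diets, at 0.31, and the Cd14 point at 1.01 in cafeteria fasted against fed rats has the largest size.

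Csf1r, the receptor whose signal keeps monocytes and macrophages alive, was low in every control fasted rat. Its log2 ratio there was -0.59, -0.80, -0.53, -0.49 and -0.57 in rats 2, 5, 8, 11 and 14, a mean of -0.59 ± 0.12 (SD, n = 5). The control refed rats 3, 6, 9, 12 and 15 had -0.48, -0.59, -0.57, 0.37 and -0.55, so rat 12 stood alone and the others lay in the range of the fasted rats or at its edge. The refed minus fasted difference of 0.23 (adjusted p = 0.633) was 0.05 without that rat. Control fed rats ran from -0.87 to 0.18, cafeteria fed rats from -1.11 to 0.42, cafeteria fasted rats from -0.76 to 0.08 and cafeteria refed rats from -0.50 to 0.37. Every one of these ranges overlapped that of the control fasted rats. In order of the mean, the groups were cafeteria refed (-0.04), cafeteria fed and control fed (-0.27 each), cafeteria fasted (-0.35), control refed (-0.37) and control fasted (-0.59). Among the genes most like Csf1r over the arrays were Blvra (r = 0.94) and Grn (r = 0.93).

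**Figure D3:**
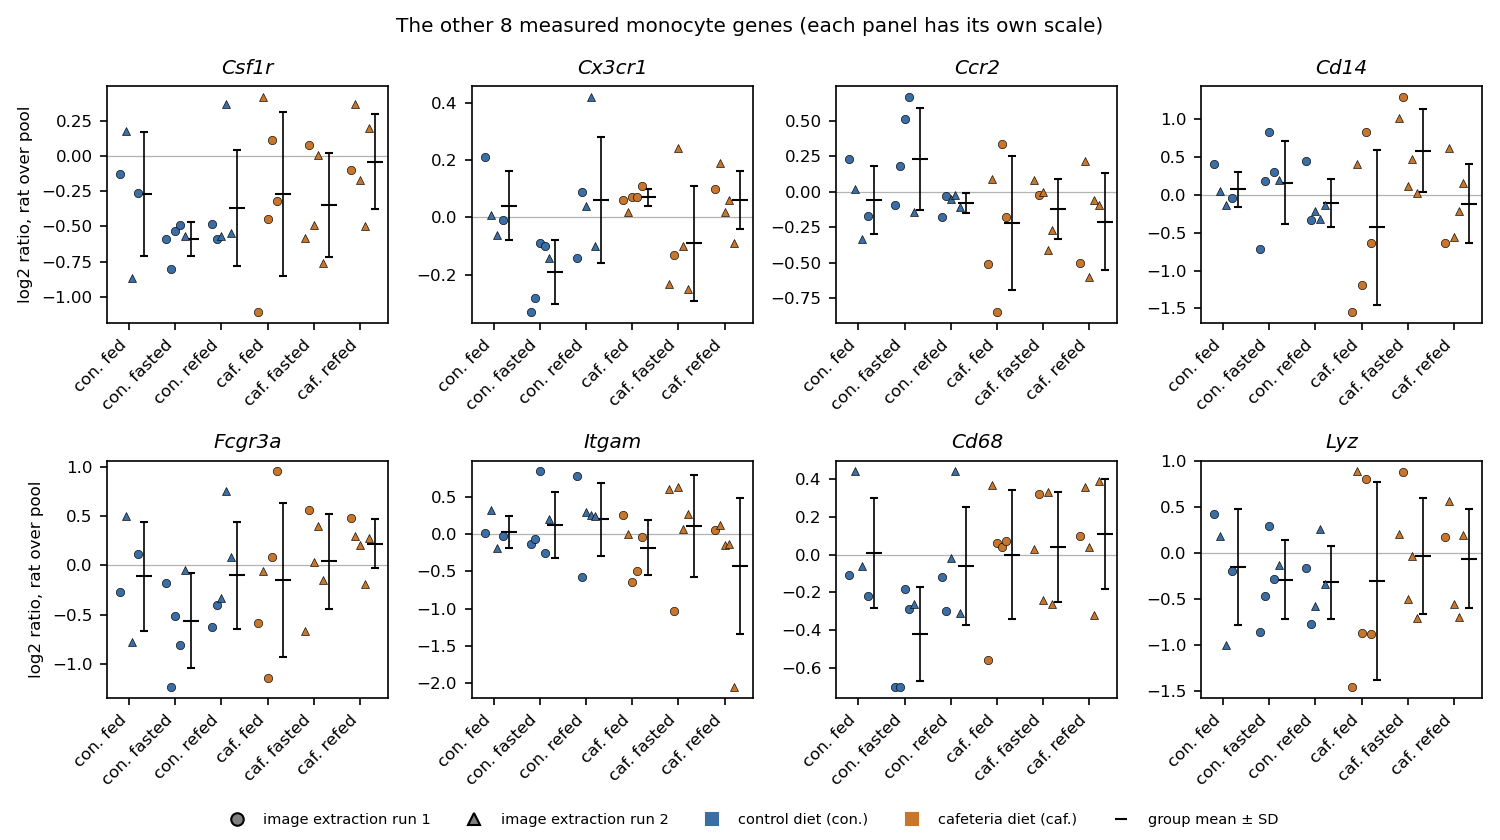
Log2 ratio of each rat over the reference pool for the other 8 measured members, by diet and feeding state, with the group mean and SD beside the points and a scale of its own in each panel. Csf1r, Cx3cr1, Cd68 and Fcgr3a have their lowest group mean in control fasted rats (-0.59, -0.19, -0.42 and -0.56), while Ccr2 has its highest there (0.23).

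The chemokine receptors Cx3cr1 and Ccr2, which mark the nonclassical and the classical subset, had their lowest and their highest group mean in control fasted rats. Cx3cr1 had log2 ratios of -0.33, -0.28, -0.09, -0.10 and -0.14 in control fasted rats 2, 5, 8, 11 and 14, and of 0.21, 0.01, -0.06 and -0.01 in control fed rats 1, 4, 7 and 13. Every fasted rat was below every fed rat, which held for 4.73% of all genes, but the difference of -0.23 ± 0.10 was not called (adjusted p = 0.345). In control refed rats 3, 6, 9, 12 and 15 the values were -0.14, 0.09, 0.04, 0.42 and -0.10, and they overlapped the fasted rats. The refed minus fasted difference was 0.25 ± 0.09 (adjusted p = 0.0789), the smallest adjusted p of any member in a comparison of feeding states. In the authors' normalized table it was 0.43 and called (adjusted p = 0.0266), and it was 0.30 and called without control refed rat 3 (adjusted p = 0.0422). Without cafeteria fasted rat 8, whose group lies outside the comparison but shares the estimate of spread, it was 0.25 and called (adjusted p = 0.0438).

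Cx3cr1 varied least of all members in cafeteria fed rats, at 0.06, 0.02, 0.07, 0.07 and 0.11 in rats 1, 4, 7, 10 and 13. Its cafeteria fasted values ran from -0.25 to 0.24 and its cafeteria refed values from -0.09 to 0.19, with means of -0.09 and 0.06. Within both diets its lowest mean was thus in fasted rats, with a fasted minus fed difference of -0.16 in cafeteria rats (adjusted p = 0.587). That response differed between diets by 0.07 (95% confidence interval -0.20 to 0.33, adjusted p = 1). The genes most like Cx3cr1 were Vps29, Spn and Stxbp3 (r = 0.79 each), of which Spn encodes CD43, the antigen by which rat monocyte subsets are sorted. Spn is 1 of 8 tested genes of the nonclassical list. With the mean of that list Cx3cr1 correlated at 0.03, or 0.30 with group means removed.

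Ccr2, the receptor for Ccl2, had log2 ratios of -0.09, 0.18, 0.51, 0.67 and -0.14 in control fasted rats 2, 5, 8, 11 and 14, with rats 8 and 11 above every other rat of the study. In control refed rats it lay close together, from -0.18 to -0.02, and in control fed rats it ran from -0.33 to 0.23. Cafeteria fed rats ran from -0.85 to 0.34, cafeteria fasted rats from -0.41 to 0.08 and cafeteria refed rats from -0.60 to 0.22. The control fasted mean of 0.23 ± 0.36 (SD, n = 5) was the highest and the cafeteria fed mean of -0.22 ± 0.47 (SD, n = 5) the lowest, with all neighbouring groups overlapping. The cafeteria minus control difference in fasted rats was -0.35 (adjusted p = 0.384). Dab2 (r = 0.76), Trim54 (r = 0.74) and Clec10a (r = 0.71) were most like Ccr2.

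Within a rat, the Cx3cr1 log2 ratio minus the Ccr2 log2 ratio averaged -0.42 ± 0.30 (SD, n = 5) in control fasted rats, where it ran from -0.77 to 0. The mean was 0.10 ± 0.14 (SD, n = 4) in control fed and 0.14 ± 0.17 (SD, n = 5) in control refed rats. In cafeteria rats it was 0.29 ± 0.48 (fed), 0.03 ± 0.26 (fasted) and 0.26 ± 0.32 (refed; SD, n = 5 each). It was lowest in fasted rats of both diets, and the cafeteria ranges overlapped one another. This difference was chosen after the values were seen and was not tested. The mean of the 8 nonclassical list genes was 0.01 in control fasted and -0.05 in control fed rats. That of the 12 classical list genes was 0.05 and 0.07. Ccr2 correlated with the classical mean at 0.56 over the arrays (0.65 with group means removed). A shift between the subsets was not tested.

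Ccl2, the main ligand of Ccr2, changed with feeding state in the same RNA. Its log2 ratio was 0.91 ± 0.42 (SD, n = 5; from 0.23 to 1.37) in control fasted rats against -0.06 ± 0.17 (SD, n = 4; from -0.25 to 0.09) in control fed rats, a difference that was not called (0.96, adjusted p = 0.159). Cafeteria fasted rats, at 0.05 to 1.34, did not overlap cafeteria fed rats, at -1.59 to -0.08 (2.44% of all genes separated these groups), and there Ccl2 rose by 1.56 ± 0.28 (adjusted p = 0.0109, limma). With image extraction run as a block it was 1.43 and not called (adjusted p = 0.0554). It was also not called with slide as a block (1.46, adjusted p = 0.117) or with median centring (1.73, adjusted p = 0.0762). Run 1 held 4 cafeteria fed and 1 cafeteria fasted arrays, so feeding state and run largely coincide there. On refeeding Ccl2 fell by 1.15 in control (adjusted p = 0.00784) and by 1.42 in cafeteria rats (adjusted p = 0.00995). With median centring the cafeteria refeeding change was -1.45 and not called (adjusted p = 0.187). The change of Ccr2 in those 4 comparisons was 0.29, 0.10, -0.30 and -0.09, and none was called.

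Cd14, the co-receptor that hands lipopolysaccharide to Tlr4, had the widest range of group means of the 9 members. In cafeteria fasted rats 2, 5, 8, 11 and 14 the log2 ratio was 1.01, 1.29, 0.12, 0.47 and 0.02, and in cafeteria fed rats 1, 4, 7, 10 and 13 it was -1.55, 0.40, -1.19, 0.82 and -0.64. The fed rats fell apart into 3 low and 2 high values, and the ranges overlap. The difference of 1.01 ± 0.35 (95% confidence interval 0.29 to 1.74, 2.02-fold) was not called (adjusted p = 0.227), whereas without cafeteria fed rat 10 it was 1.33 and called (adjusted p = 0.0456). The dimmer Cd14 probe gave 0.38. In this comparison 0 of 9 members were called, against 0.853% of all genes, and at an unadjusted p under 0.05 Cd14 was the 1 of 9 that passed, against 10.6%. Feeding state and image extraction run largely coincide here: run 1 held 4 cafeteria fed and 1 cafeteria fasted arrays, and run 2 held 1 and 4. Calls over all genes fell from 207 to 22 with run as a block and to 1 with slide as a block. Feeding state and run can thus hardly be told apart in this comparison.

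In control rats Cd14 ran from -0.14 to 0.40 in fed, from -0.71 to 0.82 in fasted and from -0.33 to 0.45 in refed rats, with a fasted minus fed change of 0.09 (95% confidence interval -0.68 to 0.86). The fasting response of Cd14 differed between diets by 0.93 (-0.14 to 1.99, adjusted p = 1), so it was not shown to differ. On refeeding the Cd14 change was -0.70 in cafeteria (adjusted p = 0.394) and -0.27 in control rats (adjusted p = 0.724), and the dimmer probe gave -0.20 and 0. In control refed against fed rats the probes differed in sign, at -0.18 and 0.09. Fcnb (r = 0.91), Vcan (r = 0.89) and Fn1 (r = 0.89) were most like Cd14.

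Fcgr3a, which encodes the immune complex receptor CD16, had log2 ratios of -0.18, -1.23, -0.51, -0.81 and -0.05 in control fasted rats 2, 5, 8, 11 and 14, and all 5 were below the pool. Cafeteria refed rats ran from -0.19 to 0.48 and had the highest mean, 0.22 ± 0.25 (SD, n = 5), against -0.56 ± 0.48 (SD, n = 5) in control fasted rats. Cafeteria fed rats ran from -1.14 to 0.95 and control refed rats from -0.62 to 0.75. In fasted rats the diet difference of 0.59 was the largest of any member there, with an adjusted p of 0.388. Within run 1 the Fcgr3a diet difference over the states was 0.71, and within run 2 it was 0.01, with some groups of a single rat in each run. The 3 Fcgr2a probes had diet differences of 0.14, 0.05 and 0.07. In control fasted against fed rats their differences were -0.06, 0.03 and 0.08, against -0.45 for the Fcgr3a probe. Slc11a1 and LOC690045 (r = 0.79 each) and Zcwpw1 (r = 0.77) were most like Fcgr3a.

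Itgam, the alpha chain of complement receptor 3, was the member least like the others. Cafeteria refed rats 3, 6, 9, 12 and 15 had log2 ratios of 0.06, 0.12, -0.14, -0.13 and -2.05, so rat 15 stood far below the others. The mean of the 13 NK and cytotoxic cell markers in these rats was 0.08, -0.19, -0.34, -0.23 and -1.24, and rat 15 was again the lowest. Over the 29 arrays Itgam correlated with that marker mean at 0.36, and at 0.30 with group means removed. Control refed rat 6 went the other way, with the highest marker mean of all rats (0.63) and the lowest Itgam of its group (-0.58). The part of NK cells in the Itgam values was not tested. The cafeteria minus control difference in refed rats was -0.62 (adjusted p = 0.692), and without that rat it was -0.22. Cafeteria fasted rats ran from -1.03 to 0.63 and cafeteria fed rats from -0.64 to 0.26. The control groups ran from -0.18 to 0.32 (fed), -0.26 to 0.84 (fasted) and -0.58 to 0.78 (refed) and overlapped all cafeteria groups. The correlation of Itgam with the mean of the other 8 members was -0.19, and the genes most like it were Klre1 (r = 0.63), Zbtb40 (r = 0.61) and Klri2 (r = 0.61), of which Klre1 and Klri2 encode lectin-like receptors of NK cells.

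Cd68, of the lysosomal membrane, had log2 ratios of -0.70, -0.70, -0.18, -0.29 and -0.26 in control fasted rats 2, 5, 8, 11 and 14, and of -0.11, 0.44, -0.06 and -0.22 in control fed rats 1, 4, 7 and 13. The fasted rats were lower except that rat 8 exceeded fed rat 13. The difference of -0.44 ± 0.19 (95% confidence interval -0.82 to -0.05) was not called (adjusted p = 0.357). Cafeteria fasted rats had 0.03, 0.32, -0.24, 0.33 and -0.26, which overlapped the control fasted rats, and the diet difference there was 0.46 ± 0.18 (adjusted p = 0.219). The other groups had means between -0.06 and 0.11. Fes (r = 0.92), Clec4a1 (r = 0.90) and Ptpro (r = 0.90) were most like Cd68.

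Lyz had the widest spread within groups of the 9 members. The SD within groups was 0.66, and the 6 group means ran from -0.32 in control refed to -0.03 in cafeteria fasted rats. Cafeteria fed rats 1, 4, 7, 10 and 13 had log2 ratios of -1.46, 0.89, -0.87, 0.81 and -0.88, with the same rats high and low as for Cd14. The Pearson correlation of Lyz with Cd14 over the 29 arrays was 0.77, and with Csf1r it was 0.79. In the test across the 6 groups Lyz had the largest adjusted p of the members, 0.98. Fcna (r = 0.86), Lypd8l1 (r = 0.86) and Nlrp3 (r = 0.84) were most like it. The neighbouring lysozyme gene Lyc2, of lower signal (124 units, 24 of 29 arrays), had group means from 0.14 in control refed to 1.07 in control fasted rats.

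Fasting and refeeding gave no called member in either diet. In control fasted against fed rats 6 of 9 members were lower, with a median of -0.23 against 0 over all genes, and 0 of 9 were called against 0.177% of all genes. At an unadjusted p under 0.05, 2 of 9 passed (Cd68 and Cx3cr1), where 11.6% of all genes did. In control refed against fasted rats 6 of 9 were higher, with a median of 0.23 against 0.01, and 0 of 9 were called against 9.31% of all genes. There 2 of 9 (Spi1 and Cx3cr1) passed at an unadjusted p under 0.05, where 22.2% of all genes did. The Spi1 difference of 0.28 (adjusted p = 0.123) separated those groups without overlap, as was so for 10.2% of all genes. These comparisons share the control fasted rats, in which 5 of 9 members (Spi1, Csf1r, Cd68, Cx3cr1 and Fcgr3a) had their lowest group mean.

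In cafeteria rats the median of the members was 0.10 on fasting and 0.07 on refeeding, against 0 over all genes in each. On refeeding 0 of 9 were called, against 1.4% of all genes, and 0 passed at an unadjusted p under 0.05, against 13.3%. Cafeteria minus control, the fasting response was above 0 in 8 of 9 members, with a median of 0.25, and the refeeding response was below 0 in 6 of 9, with a median of -0.10. In these tests 0 of 9 members and 0% of all genes were called, and at an unadjusted p under 0.05 it was 0 of 9 members against 3.19% and 7.46% of genes. Refed against fed rats gave 0 of 9 calls in both diets, where 0% of all genes were called, and 0 of 9 at an unadjusted p under 0.05, against 5.84% in control and 4.26% in cafeteria rats. Between diets, 0 of 9 were called in fed, fasted and refed rats, against 0.00824%, 0.828% and 0.223% of all genes; the numbers at an unadjusted p under 0.05 were 0, 2 (Spi1 and Cd68) and 1 (Spi1), against 4.55%, 14.8% and 8.01%.

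Platelet markers were highest in control fasted rats, the group in which 5 members had their lowest mean. The mean log2 ratio of 11 platelet markers was 0.62 in control fasted (from 0.45 to 0.75) and -0.75 in control refed rats (from -1.28 to -0.23), against 0.13 in control fed rats (from -0.35 to 0.92). In control refed against fasted rats 10 of these 11 genes fell, with a median of -1.54, among them Treml1 (-1.95, adjusted p = 0.00245) and Gp1bb (-1.84, adjusted p = 0.00229). The cafeteria means were -0.16 in fed (from -0.74 to 0.36), 0.03 in fasted (from -0.34 to 0.25) and -0.48 in refed rats (from -1.53 to 0.35). Neutrophil markers, in contrast to platelet markers, had their lowest mean in control fasted rats, -0.27 (from -0.38 to -0.16), against 0.02 in control fed rats (from -0.18 to 0.12). Of 11 neutrophil markers 9 were lower in control fasted than in control fed rats, with a median of -0.17 and none called. The part of platelet and neutrophil RNA in the members' values was not tested.

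The members did not move as a block. Over the 29 arrays the 36 pairs of members had a median Pearson correlation of 0.35, from -0.47 to 0.84, with 10 pairs over 0.5 and 10 below 0. With group means removed the median was 0.32, from -0.42 to 0.84. Csf1r and Cd68 formed the closest pair (r = 0.84). Pairs among Cd14, Lyz and Ccr2 had r = 0.77 for Cd14 with Lyz, 0.66 for Cd14 with Ccr2 and 0.50 for Lyz with Ccr2. Lyz was also at 0.79 with Csf1r and 0.63 with Cd68. Spi1 was at 0.18 with Cd14 and -0.15 with Ccr2, or 0.48 and 0.32 with group means removed. The correlation with the mean of the other members was highest for Csf1r (0.83), Lyz (0.79) and Cd68 (0.72), and lower for Spi1 (0.57), Fcgr3a (0.54), Cd14 (0.45), Cx3cr1 (0.31) and Ccr2 (0.22).

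**Figure D4:**
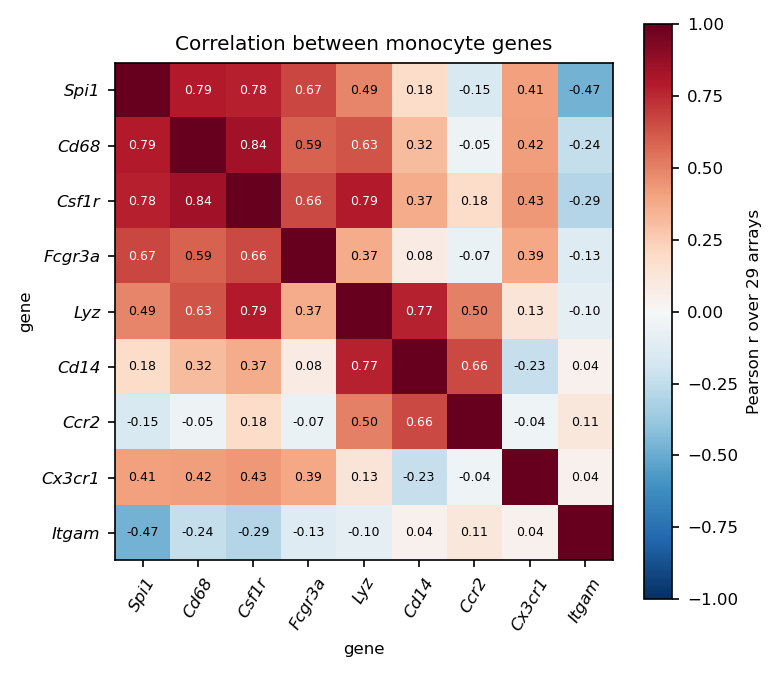
Pearson correlation of the log2 ratios over 29 arrays for each pair of the 9 measured members, printed in each cell and coloured from blue (-1) to red (1). Spi1, Cd68, Csf1r and Fcgr3a form a block with values of 0.59 to 0.84, and Itgam is negative with Spi1 at -0.47. Lyz is at 0.79 with Csf1r and 0.77 with Cd14.

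The 10 genes most like the mean of the 9 members, each scaled to the same spread, were Fcna (r = 0.89), Clec4a1 (r = 0.86), Emilin2 and Grn (r = 0.85 each), Ltbr and Cd302 (r = 0.84 each) and Tgfbi, Alox5ap, Tnfsf13 and Mal (r = 0.83 each). Their diet differences ran from 0.07 for Grn to 0.17 for Ltbr, and none was called. Fcna encodes a ficolin, a lectin of the complement system, Grn the lysosomal protein progranulin, and Alox5ap the partner of 5-lipoxygenase in leukotriene synthesis.

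Other myeloid genes were read from 7 lists, on which 78 of 93 genes were tested. Between diets, averaged over the states, 1 of the 78 rose and 0 fell, against 3.25% of all genes, with a median of 0.09. The gene that rose was Cebpe, a transcription factor of late granulocyte differentiation, by 0.32 ± 0.08 (adjusted p = 0.0266, limma). That call ended in several alternatives. The Cebpe difference was 0.30 without control fed rat 13 or control refed rat 3 (adjusted p = 0.0518 each), 0.21 with Cy5 alone (adjusted p = 0.45) and 0.41 with median centring (adjusted p = 0.322). It was 0.40 from the processed signals (adjusted p = 0.058), 0.28 with slide as a block (adjusted p = 0.113) and 0.31 with the replicate block (adjusted p = 0.142). Its log2 ratio ran from -0.79 to -0.36 in control fasted and from -0.31 to 0.07 in cafeteria fasted rats, which did not overlap. That was so for 4.53% of all genes. Between these fasted groups Cebpe was not called, and 0 of the 11 tested transcription factors were. Run 1 held 4 of the control fasted and 1 of the cafeteria fasted arrays. In the diet comparison over the states, the other 10 tested transcription factors of the list did not pass.

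By list, the diet comparison called 1 of 11 transcription factors (median 0.09), 0 of 6 ligands of member receptors (0.06), 0 of 11 partners and effectors of those receptors (0.12), 0 of 14 genes of the phagocyte oxidase and lysosome (0.07), 0 of 12 classical (0.06) and 0 of 8 nonclassical monocyte genes (0.11), and 0 of 16 other surface genes (0.11). Among the largest changes on each list were -0.48 for Ccl2 and -0.10 for Csf1 among ligands, and 0.20 for the adaptor Tyrobp among partners. They were -0.43 for the protease inhibitor Cst3 and 0.31 for the oxidase subunit Cybb (adjusted p = 0.0725). Among classical genes they were -0.57 for F13a1 and 0.33 for the scavenger receptor Cd36, and among nonclassical genes 0.26 for Itgal and -0.18 for Pecam1. Among surface genes they were -0.37 for Clec10a and 0.35 for Pilra.

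In control refed against fasted rats, 4 of the 78 genes rose and 7 fell, against 9.31% of all genes called. Cebpe (0.51, adjusted p = 0.0179), Tlr4, the receptor that Cd14 serves (0.46, adjusted p = 0.0421), Spn (0.64, adjusted p = 0.0021) and the inhibitory receptor Sirpa (0.62, adjusted p = 0.015) rose. The genes that fell were Cst3 (-2.03, adjusted p = 0.000998), F13a1 (-1.58, adjusted p = 0.00328), Cd9 (-1.26, adjusted p = 0.00296), Ccl2, Dusp5 (-0.86, adjusted p = 0.00362), Lamp2 (-0.61, adjusted p = 0.0094) and Thbs1 (-0.61, adjusted p = 0.0363). Of the 8 tested nonclassical list genes 1 rose (Spn) and 2 fell (Cd9 and Dusp5), with a median of 0.09. F13a1, Cd9 and Thbs1 are also expressed in platelets, whose markers fell in the same comparison. Leaving out 1 array ended the call of Tlr4 for 7 arrays (lowest change 0.34, without control refed rat 12), of Thbs1 for 5 (control fasted rats 2, 5 and 8 and control refed rats 3 and 9), and of Cebpe and Sirpa for control fasted rat 2 and control refed rat 12. The other arrays for Tlr4 were control fasted rats 2, 5, 8 and 14 and control refed rats 6 and 9. With median centring, Spn (0.43, adjusted p = 0.71), Sirpa (0.49, adjusted p = 0.671), Cebpe (0.51, adjusted p = 0.384) and Tlr4 (0.50, adjusted p = 0.34) were not called, so none of the 4 rises passed. Lamp2 (-0.71, adjusted p = 0.106) and Thbs1 (-0.69, adjusted p = 0.086) were not called there either. Cy5 alone ended the calls of Thbs1 (-0.70, adjusted p = 0.0834) and Cebpe (0.53, adjusted p = 0.12). In the other comparisons of feeding states the calls were Ccl2 in cafeteria rats, as above, and 0 of 78 in control fasted against fed and in refed against fed rats of either diet.

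Promoter sequences of the members were read, because PU.1 binds purine-rich motifs around the core GAGGAA. The table of RefSeq promoters (GRCr8 build) held 9 of the 10 members, all but Spi1. GAGGAA, searched on both strands in the 250 bases before the listed promoter start, was found in 6 of 9 members (Csf1r, Cd14, Cd68, Itgam, Lyz and Fcgr3a) and in 23.3% of 33469 promoters. Itgam, Cd14 and Csf1r held 2 matches each, and their correlations with Spi1 were -0.47, 0.18 and 0.78. Cd68, Lyz and Fcgr3a held 1 each. The windows of Csf1r, Cd14, Itgam, Cx3cr1, Ccr2, Lyz and Cd163 overlap the annotated gene, so their matches need not lie before it. TTGCNNAA, a core of C/EBP motifs, was found on either strand in 3 of 9 members (Itgam, Ccr2 and Lyz) and in 9.22% of promoters; matches of the 2 motifs did not overlap in these members. The windows of Cd68 (chr10:54882442-54882691, reverse strand) and Fcgr3a (chr13:85782386-85782635, forward strand) are shown, since these genes correlated with Spi1 at 0.79 and 0.67 and their windows lie outside the annotated gene. Capitals mark the motif, which is on the opposite strand in both and so reads as TTCCTC, 27 to 22 bases before the start in Cd68 and 54 to 49 bases before it in Fcgr3a.
Cd68: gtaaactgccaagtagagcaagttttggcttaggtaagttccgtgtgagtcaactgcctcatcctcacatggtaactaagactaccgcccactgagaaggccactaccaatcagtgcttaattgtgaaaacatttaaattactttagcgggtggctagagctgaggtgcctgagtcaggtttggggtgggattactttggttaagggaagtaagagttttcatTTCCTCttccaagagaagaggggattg
Fcgr3a: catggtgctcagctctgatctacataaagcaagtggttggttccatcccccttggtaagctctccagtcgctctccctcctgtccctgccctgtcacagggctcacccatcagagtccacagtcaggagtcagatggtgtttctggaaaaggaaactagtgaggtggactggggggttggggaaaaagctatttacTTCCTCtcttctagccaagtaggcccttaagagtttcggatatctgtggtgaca
A match describes these letters and is no site of binding, and no binding was measured here.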

How the data were processed

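The authors' scanner files hold, per the file headers, the mean and background intensity of each spot in 2 colours (Agilent Feature Extraction 9.5.1.1), with flags for spots above background, saturated or outlying. Per the labels, RNA was amplified linearly, the rat's own RNA carried Cy5 on every array, and no dyes were swapped; a dye effect common to all arrays cancels between groups. The authors' deposited values were found to hold log2 Cy5 signal (slope 0.98 to 1.02 against the scanner's; column medians 9.37 to 9.76); how they were normalized is not given in the sources used here.

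With R 4.3.3, limma 3.58.1 and data.table (version 1.17.8), intensities were background-corrected by normexp (offset 50), log2 ratios of Cy5 over Cy3 were normalized by loess within arrays, with control and outlier spots at weight 0, and 526 outlier values were left out. The 28193 of 41012 probes well above background on at least 4 of 29 arrays were kept, with the brightest probe per gene. Names came from RefSeq tables for 20450 probes, and 156 names on another chromosome were set aside. The 6 group means entered 1 fit with no covariate; p-values are 2-sided and Benjamini-Hochberg adjusted over 24267 genes in each of 12 comparisons. The 29 rats are separate animals, and their number limits the precision. The fit was tested on simulated data.

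Members, lists and comparisons were chosen with earlier results of these data known. Text names all 10 members; of each myeloid list up to 4 called genes or the 2 largest changes; of each other cell type's list the 2 largest changes; and the genes of most similar pattern (10 for the mean, 3 per member); named genes are given for part of the comparisons; a few of them are not reported here. Alternatives were Agilent's processed signals, median centring, Cy5 alone, the authors' values, other filters on dim probes, the mean of probes, slide, image extraction run or replicate number as a block, and leaving out each array.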

Additional observations from a re-analysis of the deposited data

Results flagged for a closer look

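In 3 of the 54 groups of 4 or 5 rats examined for the 9 members, 1 rat stood apart by Dixon's criterion, which chance meets in about 5% of groups. Control refed rat 12 had a Csf1r log2 ratio of 0.37, with the nearest other rat at -0.48. Control refed rat 3 had a Cd14 log2 ratio of 0.45, with the nearest at -0.13. Cafeteria refed rat 15 had an Itgam log2 ratio of -2.05, with the nearest at -0.14. Causes were not tested.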

How the results depend on the processing

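Calls of members changed in 10 of the 500 recomputed counts. The diet comparison called 1 member in every alternative except median centring (0), and its Spi1 difference ran from 0.29 to 0.45, with an adjusted p of 0.000542 to 0.0466 elsewhere; leaving out 1 array gave 0.29 to 0.35. The replicate block left Spi1 at 0.29 (adjusted p = 0.0466, limma) and lowered the calls over all genes from 788 to 635. Deviations from the group mean correlated at -0.15 to 0.21 between rats of the same number (14 pairs, 2 over 0.1). These values show little shared deviation but cannot exclude that the numbers pair the rats. Across the 6 groups, 0 members were called with median centring, with Cy5 alone and with slide as a block, and leaving out 1 array gave 1 to 2. In control refed against fasted rats, 1 member (Cx3cr1) was called in the authors' table, and leaving out 1 array gave 0 to 1, with Cx3cr1 at 0.25 (adjusted p = 0.0438) without cafeteria fasted rat 8. Leaving out 1 array gave 0 to 1 in cafeteria fasted against fed rats (Cd14) and in cafeteria against control fasted rats (Spi1 at 0.41, adjusted p = 0.0393, without cafeteria fed rat 1). The causes were not tested. Median centring lowered the calls over all genes from 2259 to 808 in control refed against fasted rats, and the authors' table gave 3934 of 17183 genes. Median centring ended the calls of the diet difference in Camp (0.93, adjusted p = 0.0863), Bank1 (-0.30, 0.422), Ahsp (1.14, 0.0567) and Cebpe (0.41, 0.322), and slide as a block those of Camp and Ahsp (adjusted p = 0.0651 each) and Cebpe (0.28, 0.113). Cebpe and Tlr4, called genes of the myeloid lists, lost their calls in control refed against fasted rats in 6 and 11 of 38 alternatives, and the Ccl2 calls in 3, 0 and 1 of 38 in cafeteria fasted against fed, control refed against fasted and cafeteria refed against fasted rats. With no filter on dim probes Cd163 passed in control refed against fasted rats (0.20, adjusted p = 0.0308), at signals not well above background on any array. Its other probe, also not well above background on any array, differed in sign there, at -0.14. Signal over background limits Cd163 and the other Csf1r probes, and 4 to 5 rats per group limit the rest.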
